A study of Mus musculus with 12 samples.

Results

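Expression of 38 genes of amino acid supply and of the response to the transcription factor ATF4 was examined in cytotoxic T lymphocytes (CTL) that lacked the kinase PDK1 or were treated with an inhibitor of the kinase Akt. The genes were 13 transporters, 14 enzymes of amino acid and one-carbon synthesis and 11 ATF4 stress genes. Among the probe sets that name a gene alone, the one brightest on average over all 12 arrays stood for it, and 37 of the 38 genes had such a probe set, out of 18193 genes on the array. Pycr1 had none and enters only the promoter search. Splenic T cells of C57BL/6 mice were activated for 48 hr with CD3 antibody (0.5 μg/ml) and IL-2 (20 ng/ml) and grown with IL-2 over the next 5 days. Cre control CTL carried a tamoxifen-inducible Cre (TamoxCre) in the ROSA26 locus, and Pdpk1-null CTL carried the same Cre with PDK1fl/fl. To switch on the Cre, both were given 0.6 μM 4OHT for the final 72 hr, and each group came from 3 mice. In a separate experiment, CTL from each of 3 wild-type mice were split into cells kept in IL-2 alone and cells given 1 μM AktI-1/2 (AktI) for the final 48 hr, with no 4OHT. Gene deletion and AktI thus both acted on cells that were already activated. AktI was given for a shorter time than 4OHT and to cells of other mice.

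ATF4 is a leucine zipper factor whose translation increases when kinases phosphorylate the initiation factor eIF2 alpha, for example when amino acids run short. With C/EBP partners it binds a composite element in promoters of genes for amino acid uptake, amino acid synthesis, tRNA charging and stress control. Activated T cells use large amounts of amino acids, and the transporter CD98, made of the heavy chain Slc3a2 and a light chain such as Slc7a5, is abundant on them. PDK1 phosphorylates Akt and other kinases of its family, whereas AktI-1/2 acts on Akt itself.

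The element that ATF4 and C/EBP factors share was searched as TGATGNAA, on both strands, in the RefSeq promoter windows of the genes (GRCm38.p6, 250 bases before to 50 after the start). Windows were found for 32 of the 38 genes, and 9 of these (28.1%) held a match, beside 4.51% of the 27025 genes with a window and 3.97% of all 32851 windows. The 9 genes were Slc7a11, Slc1a4, Asns, Pycr1, Got1, Trib3, Chac1, Nupr1 and Vldlr. Since the genes were listed for amino acid supply and the ATF4 response, this share describes the list and was not tested. The stretches around the matches are shown for the 8 measured genes, which were picked for holding a match, so that sharing it is not a result. Capitals mark the match, and all sequences run 5′ to 3′ on the strand of the gene.
Asns (chr6:7693210-7693248, minus strand): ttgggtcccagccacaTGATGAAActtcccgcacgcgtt
Got1 (chr19:43524684-43524723, minus strand): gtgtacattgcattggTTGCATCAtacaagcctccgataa
Chac1 (chr2:119351033-119351072, plus strand): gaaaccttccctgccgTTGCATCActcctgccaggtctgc
Nupr1 (chr7:126625557-126625596, minus strand): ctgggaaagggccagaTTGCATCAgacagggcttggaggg
Vldlr (chr19:27216804-27216843, plus strand): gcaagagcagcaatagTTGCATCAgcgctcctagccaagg
Slc7a11 (chr3:50443637-50443695, minus strand): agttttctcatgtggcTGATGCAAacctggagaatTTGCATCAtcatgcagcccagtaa
Slc1a4 (chr11:20332710-20332739, minus strand): agcctccagcgtgcctcctgcgTTGCATCA
Trib3 (chr2:152344039-152344068, minus strand): tcagcagcagattagctcaggtTTACATCA
Counted from the start of the gene, the match began at base -23 in Asns, -102 in Got1, -193 in Chac1, -110 in Nupr1 and -200 in Vldlr. It lay across the start in Slc1a4 and from base 15 after the start in Trib3, and Slc7a11 held it on both strands, from base -66 and from base -47. The stretches were chosen for print after the values of the genes had been seen. Among the genes called in a comparison below, Slc16a10 and Atf5 had a window and no match. Their 250 bases before the start, for Atf5 those of the start farther upstream, are given for comparison with the stretches that hold one.
Slc16a10 (chr10:40142255-40142504, minus strand): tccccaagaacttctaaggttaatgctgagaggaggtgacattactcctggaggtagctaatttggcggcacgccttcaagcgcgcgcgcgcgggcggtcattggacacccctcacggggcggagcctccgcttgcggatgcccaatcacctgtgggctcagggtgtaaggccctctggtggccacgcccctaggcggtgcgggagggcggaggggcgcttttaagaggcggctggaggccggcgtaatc
Atf5 (chr7:44816659-44816908, minus strand): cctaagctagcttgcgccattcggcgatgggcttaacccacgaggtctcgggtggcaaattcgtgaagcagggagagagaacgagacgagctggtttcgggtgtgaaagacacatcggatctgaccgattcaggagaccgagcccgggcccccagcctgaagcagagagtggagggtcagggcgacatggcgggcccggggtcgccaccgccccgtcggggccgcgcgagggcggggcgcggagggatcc
A match is a stretch of letters and does not show that a factor is bound there. Its absence says only that these letters are not in this window.

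The deposited values are log2 signals, in which a step of 1 is a doubling. Array medians ran from 4.60 to 4.62 for Pdpk1-null and Cre control CTL and from 5.10 to 5.14 for CTL with and without AktI, so effects and not levels are compared between experiments. Whether the experiments were normalized together is not given in the sources used here, and they were treated as separate. Background was set at a signal of 4.45 for the Pdpk1 arrays and 4.99 for the Akt arrays, the 95th percentile of 80 probe sets of odorant and pheromone receptors. The 5 CTL markers (Cd3e, Cd8a, Cd8b1, Gzmb, Prf1) had group means from 9.62 to 14.05 and from 9.95 to 14.65 in the 2 experiments. Of 17 markers of CD4 T cells and of B, myeloid, NK and erythroid cells, 10 and 11 were below background in both groups, and 0 were called in either comparison. Pdpk1 itself had 8.96 to 9.03 in Cre control CTL and 8.95 to 9.09 after deletion (difference 0.05 on the log2 scale, adjusted p = 0.822 from limma), and its probe sets are not known to lie in the deleted part, so they do not check the labels. Signals of Eif2s3y, on the Y chromosome, ran from 2.08 to 2.67 on the Pdpk1 arrays and from 9.71 to 9.92 on the Akt arrays, so the sex of the mice and the experiment cannot be told apart where the effects of the experiments are compared. In bulk RNA, fewer cells of a type and less RNA per cell cannot be told apart.

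The first question was how loss of PDK1 changed these genes. In Pdpk1-null CTL most of them had a lower signal than in Cre control CTL, by modest amounts. The log2 fold change was below 0 for 31 of 37 genes (52.9% of all genes tested), with a median of -0.24, a lowest value of -1.09 and a highest of 0.24, beside a median of -0.01 over all genes and also over the 11970 genes above background. For 22 genes (59.5%) all 3 Pdpk1-null arrays were below all 3 Cre control arrays, compared with 13.7% of all genes and 17.8% of the genes above background. For 0 genes did all 3 lie above, compared with 10.9% of all genes. An unadjusted p under 0.05 from limma was reached by 21 genes with a lower signal, compared with 9.04% of all genes, and by 0 with a higher one, compared with 8.22%.

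Few of these shifts passed the test over all probe sets. A change was called at an adjusted p under 0.05 (limma, Benjamini-Hochberg over 45037 probe sets) and at least 1.5-fold. Called lower were 3 of 37 genes, Slc16a10, Cth and Atf5, compared with 0.357% of all genes, and called higher were 0, compared with 1.01%. At the adjusted p alone, Asns, Ddit4 and Xpot joined them, so that 6 genes were lower, compared with 0.742% of all genes, and 0 were higher, compared with 1.63%. When each array was left out, the limma adjusted p of Asns ran from 0.0430 to 0.106. That of Ddit4 ran from 0.0703 to 0.165 and that of Xpot from 0.0548 to 0.131, so Ddit4 and Xpot passed in none of these fits. By role, the median was -0.19 for transporters, -0.24 for synthesis enzymes and -0.30 for ATF4 stress genes, with 9 of 13, 8 of 13 and 5 of 11 genes lower without overlap.

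**Figure D1:**
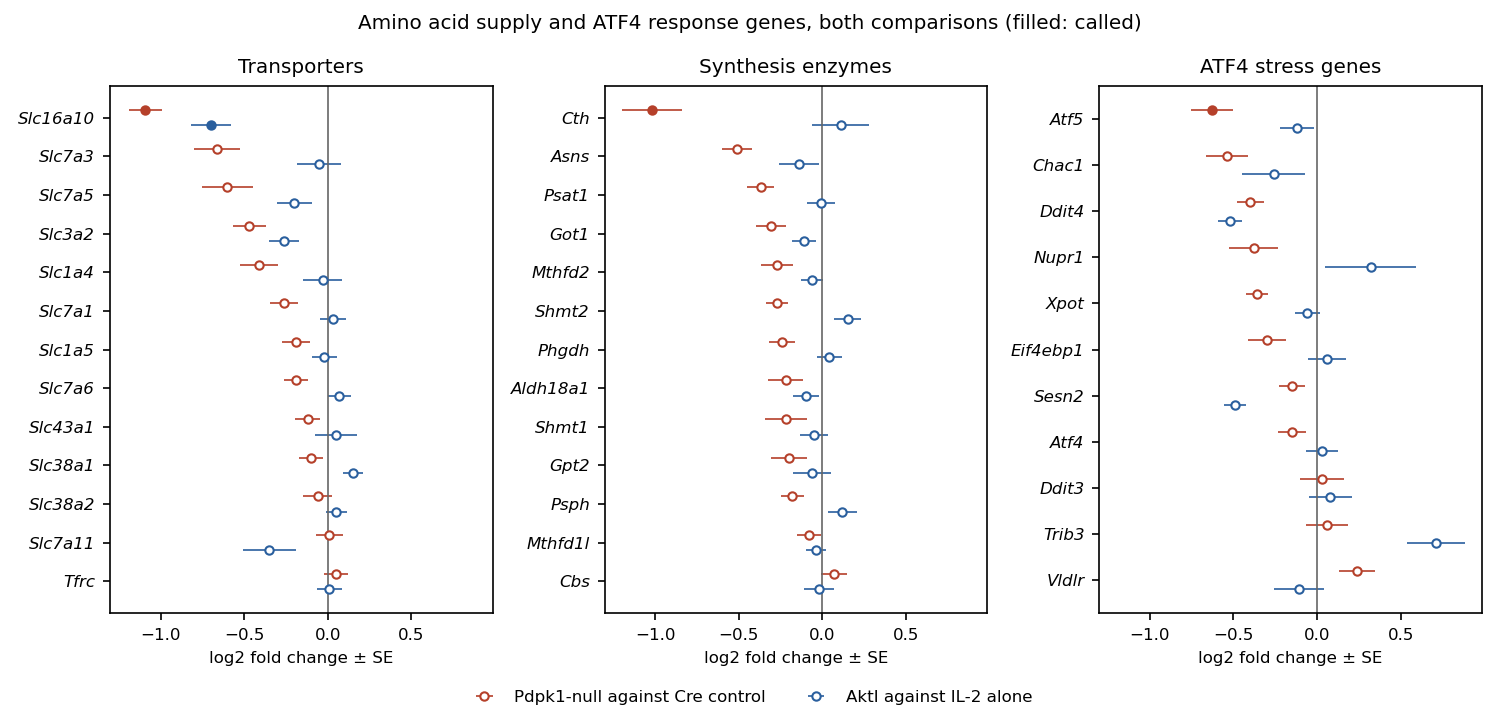
Log2 fold change (horizontal axis, ± standard error, n = 3 arrays per group) of the 37 measured genes in Pdpk1-null against Cre control CTL (red) and in AktI against IL-2 alone (blue), by role; filled points were called. Of the red points 31 lie left of 0 and of the blue points 22, and the filled points are Slc16a10 in both comparisons and Cth and Atf5 in red.

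The second question was whether inhibition of Akt did the same. With AktI the genes were spread about the level of IL-2 alone, and 22 of 37 had a log2 fold change below 0 (55.0% of all genes tested). Their median was -0.03, from -0.70 to 0.71, beside -0.02 over all genes. All 3 AktI arrays were below all 3 arrays in IL-2 alone for 5 genes, Slc16a10, Slc3a2, Mthfd1l, Sesn2 and Ddit4, compared with 14.8% of all genes. They were all above for 2, Slc38a1 and Trib3, compared with 12.7%. Called lower was 1 gene, Slc16a10, compared with 1.03% of all genes, and called higher were 0, compared with 1.51%, while 2 had a higher signal at an unadjusted p under 0.05 in limma (9.62% of all genes) and 4 a lower one (10.7%). At the adjusted p alone, 3 were lower (2.94% of all genes), namely Slc16a10, Sesn2 and Ddit4, and 0 were higher (3.66%). These fits did not pair the arrays by mouse. With the mouse as a replicate block, Slc16a10 was still called lower and Trib3 was called higher.

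The AktI arrays differed among themselves in these genes. Against the mean of IL-2 alone, the median over the 37 genes was -0.13 in AktI replicate 1, -0.05 in replicate 2 and 0.07 in replicate 3, while the median over all genes was -0.01 on each. Within a mouse, the median difference was -0.04, -0.12 and 0.09 in mice 1 to 3, beside -0.01, -0.00 and -0.02 over all genes. Lower within a mouse were 24, 30 and 12 of the 37 genes. AktI was lower in all 3 mice for 7 genes and in none for 3. No share of all genes was taken for these counts within mice, so they only describe the 37 genes. Without AktI replicate 3, 12 of the 37 genes (32.4%) were lower without overlap, beside 19.5% of all genes with that array left out. Without any other array of this experiment, 5 to 7 genes were (13.5% to 18.9%), beside 19.2% to 21.4% of all genes. The Pdpk1-null arrays were closer together, with medians of -0.30, -0.23 and -0.21 and with 34, 32 and 29 genes below the mean of Cre control. Over all genes the medians of these arrays were -0.01, -0.02 and -0.00, and no share of all genes was taken for the counts.

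**Figure D2:**
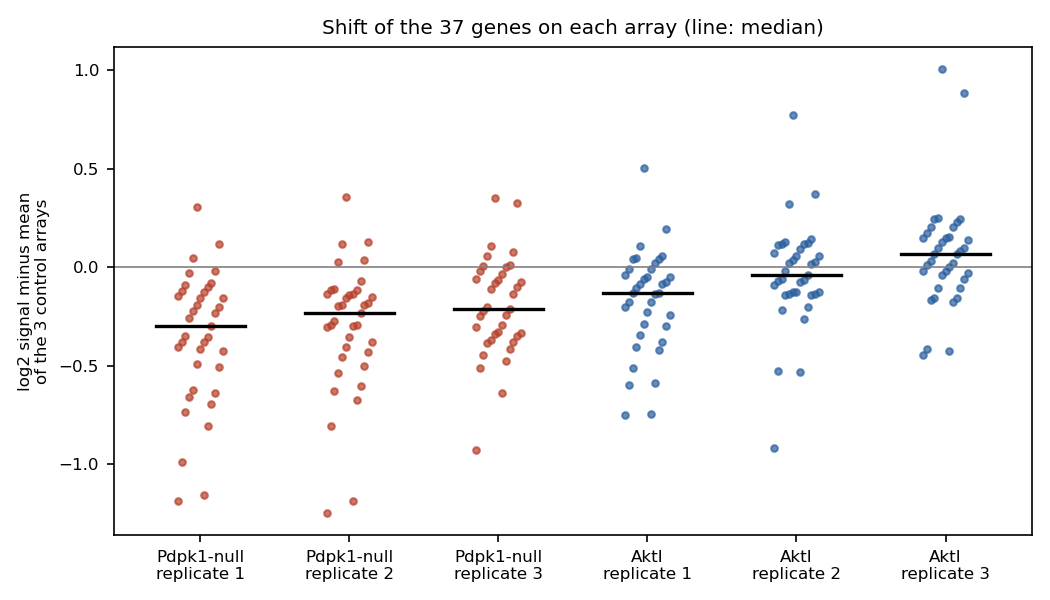
Log2 signal of each of the 37 genes on each Pdpk1-null and AktI array minus the mean of the 3 control arrays of its experiment (vertical axis; a point is a gene, a line the median). The medians of the 3 Pdpk1-null arrays are -0.30, -0.23 and -0.21, and that of AktI replicate 3 is above 0.

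Among the transporters, Slc16a10 had the largest change in both comparisons. It encodes a carrier of aromatic amino acids. Its log2 signal was 8.17, 8.41 and 8.25 in Cre control replicates 1 to 3 and 7.12, 7.09 and 7.35 in Pdpk1-null replicates 1 to 3. It was 6.89, 6.94 and 7.07 in IL-2 alone and 6.22, 6.05 and 6.54 with AktI for mice 1 to 3. Neither pair of groups overlapped, and each mouse had a lower signal with AktI (log2 differences of -0.67, -0.89 and -0.53). Slc16a10 thus fell 2.13-fold after deletion (-1.09 ± 0.0975 on the log2 scale, standard error, n = 3, limma adjusted p = 0.00260). With AktI it fell 1.62-fold (-0.70 ± 0.120, adjusted p = 0.0133). The second of its 4 probe sets had -0.84 (adjusted p = 0.00692) and -0.52 (adjusted p = 0.0454), and the other two lay below background. The call after deletion held without any 1 array. That with AktI was lost without AktI replicate 1 (adjusted p = 0.0559) or IL-2 alone replicate 3 (adjusted p = 0.0515). The difference between the effects was -0.39, with a 95% interval from -0.75 to -0.04 and an adjusted p of 0.428.

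The carrier Slc7a3, for cationic amino acids, had 7.65, 7.84 and 7.58 in Cre control and 6.70, 7.19 and 7.18 in Pdpk1-null replicates 1 to 3. The groups did not overlap, and the change of -0.66 (standard error 0.137) had a limma adjusted p of 0.0557, just outside the threshold. With AktI its log2 fold change was -0.05. The heavy chain Slc3a2 had 9.74, 9.93 and 9.97 in Cre control and 9.24, 9.45 and 9.54 in Pdpk1-null CTL, again without overlap (-0.47, adjusted p = 0.0572). In IL-2 alone it had 11.06, 11.18 and 10.98 and with AktI 10.67, 10.87 and 10.92, lower in each mouse (-0.26, adjusted p = 0.171). Its partner Slc7a5, the light chain for large neutral amino acids, had log2 fold changes of -0.60 (adjusted p = 0.0981) and -0.20 (adjusted p = 0.375). Both chains of CD98 were thus lower in all 3 Pdpk1-null arrays without being called. These signals are of mRNA and do not measure uptake. The study measured phenylalanine uptake in Pdpk1-null CTL and reported that amino acid uptake had no defect.

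The glutamine carrier Slc38a1 was 1 of the 2 genes with a higher signal on all AktI arrays, 10.67, 10.60 and 10.63, against 10.46, 10.47 and 10.50 in IL-2 alone (log2 fold change 0.15, adjusted p = 0.235 in limma), while its second probe set had -0.04. After deletion it had 9.67, 9.60 and 9.67, against 9.68, 9.77 and 9.80 in Cre control (-0.10). Of the other transporters, the neutral amino acid exchanger Slc1a4 had -0.41 after deletion and -0.03 with AktI. The cationic carrier Slc7a1 had -0.26 and 0.03, the glutamine carrier Slc1a5 -0.19 and -0.02, and the exchanger light chain Slc7a6 -0.19 and 0.07. These 4 were lower without overlap after deletion and overlapped with AktI. Slc43a1 (-0.12 and 0.05), Slc38a2 (-0.06 and 0.05) and the transferrin receptor Tfrc, which carries iron and no amino acid (0.05 and 0.01), overlapped in both comparisons. The cystine carrier Slc7a11 was below background in all 4 groups, so its values (0.01 and -0.35) do not measure a change.

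**Figure D3:**
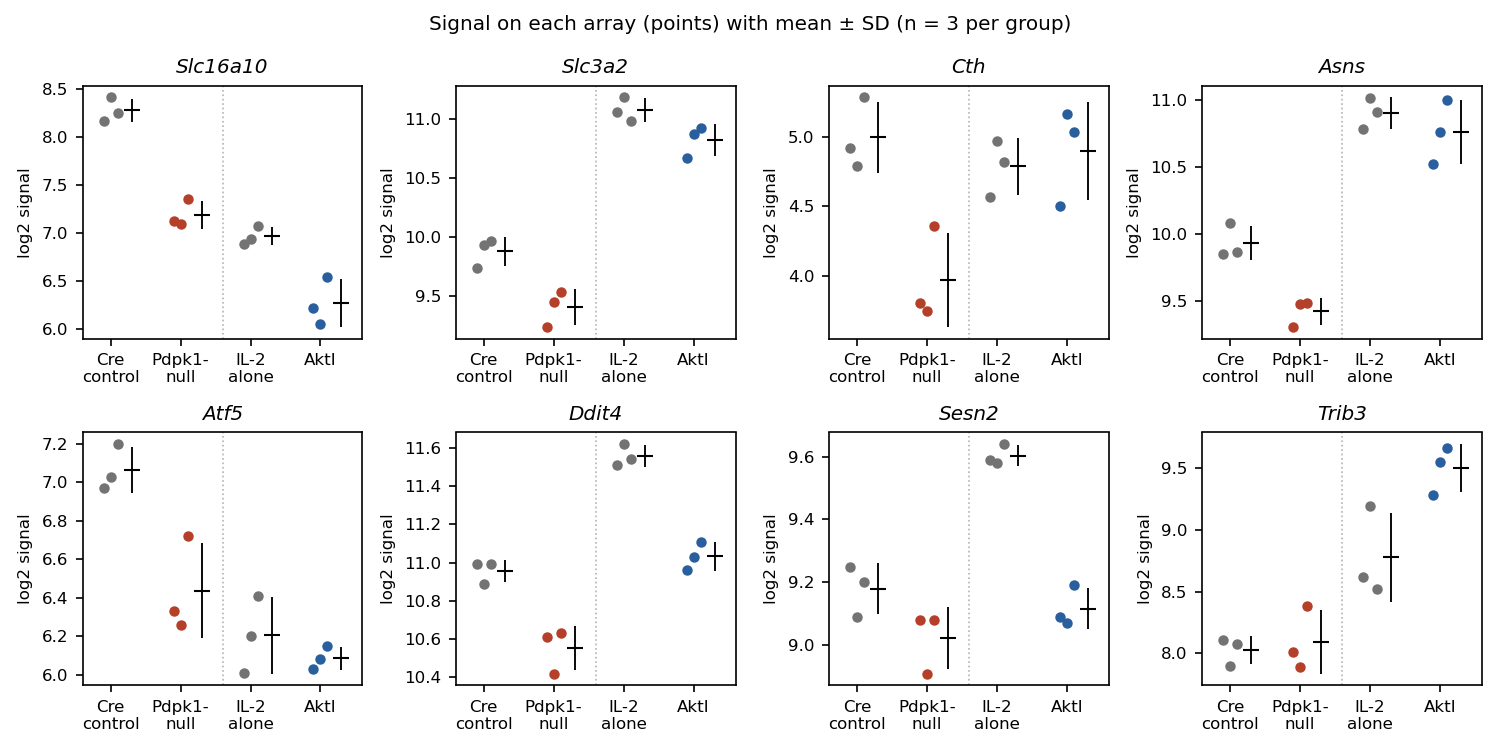
Log2 signal of 8 genes on each array (points) with the mean ± SD of each group (n = 3); the dotted line separates the 2 experiments, between which levels are not compared. Slc16a10, Slc3a2, Ddit4 and Sesn2 are lower in Pdpk1-null and in AktI CTL without overlap. Cth, Asns and Atf5 are lower without overlap in Pdpk1-null CTL and overlap with AktI, where both group means of Cth are below background. Trib3 is higher with AktI.

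Among the synthesis enzymes, Cth was the gene called after deletion. It encodes cystathionine gamma-lyase, which makes cysteine. Its signal was 4.92, 4.79 and 5.28 in Cre control and 3.81, 3.75 and 4.36 in Pdpk1-null replicates 1 to 3. The groups did not overlap, and the Pdpk1-null mean lay below background, so the fall of 2.03-fold (log2 fold change -1.02, standard error 0.179, limma adjusted p = 0.0319) is between a low level and background and its size is not exact. The call was lost without Cre control replicate 1, 2 or 3 (adjusted p = 0.0902, 0.0741 and 0.113) and without Pdpk1-null replicate 1 or 2 (0.104 and 0.0579). In the Akt experiment, where both group means were below background, it had 4.57, 4.97 and 4.82 in IL-2 alone and 4.50, 5.16 and 5.03 with AktI, so that neither a change with AktI nor a difference between the effects was measured for this gene.

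Asparagine synthetase, Asns, had 9.85, 10.08 and 9.87 in Cre control and 9.31, 9.48 and 9.49 in Pdpk1-null CTL. All 3 arrays were lower, and its change of -0.51 (standard error 0.0892, adjusted p = 0.0316 in limma), a 1.43-fold difference, passed the test and not the fold minimum. Its second probe set had -0.53 (adjusted p = 0.0462). With AktI it had 10.52, 10.76 and 11.00, against 10.78, 11.01 and 10.91 in IL-2 alone, and the groups overlapped (-0.14, adjusted p = 0.633).

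The path from glycolysis to serine had smaller shifts of the same sign. Psat1, the aminotransferase of this path, had 10.47, 10.69 and 10.53 in Cre control and 10.16, 10.27 and 10.15 in Pdpk1-null CTL (-0.37 on the log2 scale, limma adjusted p = 0.0633). Psph, its last enzyme, had 8.54, 8.59 and 8.51 against 8.39, 8.41 and 8.30 (-0.18, adjusted p = 0.258). Phgdh, its first enzyme, had -0.24 (adjusted p = 0.178). All 3 were lower without overlap after deletion. With AktI their log2 fold changes were -0.01, 0.12 and 0.04, and Psph had 10.19, 10.27 and 10.32 against 10.03, 10.29 and 10.11 in IL-2 alone.

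Shmt2, which moves a carbon of serine to folate in mitochondria, had 9.73, 9.84 and 9.78 in Cre control and 9.55, 9.49 and 9.48 in Pdpk1-null CTL (-0.27, adjusted p = 0.0908). It had 10.95, 11.19 and 10.98 in IL-2 alone and 11.15, 11.16 and 11.27 with AktI (0.15, adjusted p = 0.399). The groups did not overlap after deletion and overlapped with AktI, and the difference between the effects was -0.43 (95% interval -0.65 to -0.20, adjusted p = 0.123 in limma). The next enzyme of that path, Mthfd2, had -0.27 and -0.06, and Mthfd1l had -0.08 and -0.04.

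The aminotransferase Got1 had 8.84, 8.89 and 9.06 in Cre control and 8.55, 8.75 and 8.56 in Pdpk1-null CTL, without overlap (-0.31, adjusted p = 0.145). With AktI it had 10.14, 10.10 and 10.12, against 10.24, 10.32 and 10.12 (-0.11, adjusted p = 0.522). Shmt1 (-0.22 and -0.05), the proline enzyme Aldh18a1 (-0.22 and -0.10) and Cbs, which acts before Cth (0.07 and -0.02), overlapped in both comparisons. The alanine aminotransferase Gpt2 depended on the probe set. Its brightest had -0.20 after deletion (adjusted p = 0.426), while another was called lower, with group means of 5.19 in Cre control and 4.22, below background, in Pdpk1-null CTL (-0.98, standard error 0.0970, adjusted p = 0.00373). The other two had -0.41 and -0.33 and means below background in Pdpk1-null CTL. With AktI the 4 probe sets had values from -0.06 to 0.07.

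Among the ATF4 stress genes, Atf5 fell after deletion. Atf5 encodes a leucine zipper factor related to ATF4. Its signal was 6.97, 7.03 and 7.20 in Cre control and 6.33, 6.26 and 6.72 in Pdpk1-null replicates 1 to 3, without overlap. The fall was 1.55-fold (log2 fold change -0.63, standard error 0.125, limma adjusted p = 0.0478), close to both thresholds. The call was lost without Cre control replicate 1, 2 or 3 (adjusted p = 0.104, 0.150 and 0.172) and without Pdpk1-null replicate 1 or 2 (0.152 and 0.0818). In IL-2 alone it had 6.01, 6.20 and 6.41 and with AktI 6.03, 6.08 and 6.15, which overlapped (-0.12, adjusted p = 0.629). The difference between the effects was -0.52 (95% interval -0.89 to -0.14, adjusted p = 0.287).

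The mRNA of Atf4 had a log2 fold change of -0.15 after deletion (adjusted p = 0.457) and 0.03 with AktI (adjusted p = 0.928), and the groups overlapped in both. ATF4 is controlled largely through its translation, which these arrays do not measure.

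Ddit4 and Sesn2 encode inhibitors of the kinase mTORC1. Ddit4 had 10.99, 10.89 and 10.99 in Cre control and 10.61, 10.42 and 10.63 in Pdpk1-null CTL (-0.40, adjusted p = 0.0474 in limma). It had 11.51, 11.62 and 11.54 in IL-2 alone and 10.96, 11.03 and 11.11 with AktI (-0.52, standard error 0.0701, adjusted p = 0.00417). Ddit4 was thus lower without overlap in both comparisons, at less than 1.5-fold. Sesn2, which also senses leucine, had 9.59, 9.58 and 9.64 in IL-2 alone and 9.09, 9.07 and 9.19 with AktI (-0.49 ± 0.0653, adjusted p = 0.00417). Its second probe set had a smaller change that did not pass (-0.21, adjusted p = 0.125). Pdpk1-null replicates 1 to 3 had 9.08, 8.91 and 9.08, against 9.25, 9.09 and 9.20 in Cre control (-0.15, adjusted p = 0.425), also without overlap. The signal of Sesn2 was lower with AktI in each mouse (-0.50, -0.51 and -0.45), and the difference between the effects was 0.33 (95% interval 0.12 to 0.55, adjusted p = 0.223).

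Trib3, a pseudokinase gene that ATF4 and its partner Ddit3 (CHOP) induce, had the opposite sign with AktI. Its signal was 8.62, 9.19 and 8.52 in IL-2 alone and 9.28, 9.55 and 9.66 with AktI, higher in each mouse (0.65, 0.36 and 1.13) and without overlap. The change of 0.71 (standard error 0.172, limma adjusted p = 0.0525), a 1.64-fold difference, missed the threshold. With the mouse as a replicate block it passed (adjusted p = 0.0472), as did its second probe set (0.72, adjusted p = 0.0254). After deletion it had 8.01, 7.89 and 8.38, against 8.11, 7.90 and 8.08 in Cre control (0.06, adjusted p = 0.877), and the difference between the effects was -0.65 (95% interval -1.16 to -0.14, adjusted p = 0.330). Ddit3 had 0.03 and 0.08 and overlapped in both comparisons.

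Xpot, the exportin of tRNA, had 9.51, 9.44 and 9.53 in Cre control and 9.08, 9.14 and 9.16 in Pdpk1-null CTL (-0.36, standard error 0.0661, adjusted p = 0.0364 in limma), the third gene below the fold minimum. With AktI it had 10.21, 10.25 and 10.37, against 10.24, 10.39 and 10.39 (-0.06). Chac1, which degrades glutathione, had -0.54 after deletion (adjusted p = 0.0818, no overlap) and -0.26 with AktI. The translation repressor Eif4ebp1 had -0.30 and 0.06, and the chromatin protein gene Nupr1 had -0.38 and 0.32, with overlap in each case. For Nupr1 the AktI value came from mouse 3, with a difference of 0.98 against 0.04 and -0.07 in the others. Vldlr was below background in all 4 groups. Of the 8 measured genes with a match to the element, Slc7a11 and Vldlr were below background. The others had log2 fold changes after deletion from -0.54 (Chac1) to 0.06 (Trib3), with Asns, Slc1a4, Nupr1 and Got1 between -0.51 and -0.31. With AktI they ran from -0.26 (Chac1) to 0.71 (Trib3). Of the 23 measured genes with a window and no match, Slc16a10 (-1.09) and Atf5 (-0.63) fell further after deletion than Chac1, and the rest did not. A link between match and change was not tested.

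Of the 37 genes, 26 had more than 1 probe set. After deletion the signs differed within a gene for 7 of them, Atf4, Cbs, Ddit3, Slc38a2, Slc7a11, Tfrc and Vldlr, none of which was called or lower without overlap. With AktI they differed for 13 of the 26, among them Slc38a1, whose brightest probe set was higher without overlap. The call differed for Slc16a10 and Gpt2 after deletion and for Slc16a10 and Trib3 with AktI, as given above.

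**Figure D4:**
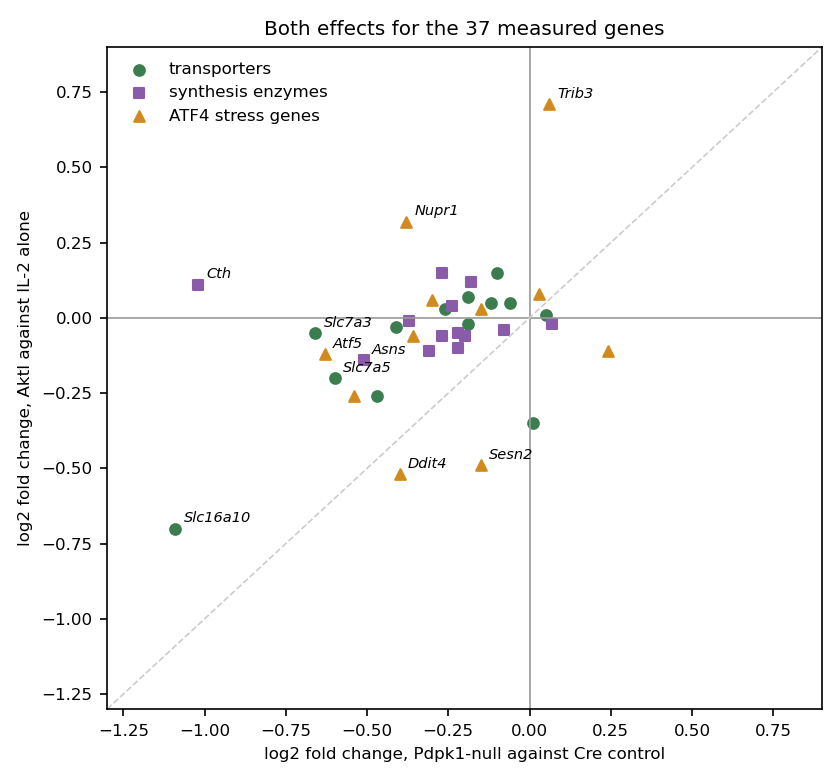
Log2 fold change in Pdpk1-null against Cre control CTL (horizontal axis) and in AktI against IL-2 alone (vertical axis) for the 37 genes, with symbols by role; the broken line marks equal effects. Most genes lie left of 0 and near 0 on the vertical axis, Slc16a10 and Ddit4 are low on both, and Trib3 is high with AktI and near 0 after deletion.

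The effects of deletion and of AktI were then set against each other, with limma fitted to all 12 arrays at once. Their difference, deletion minus AktI, was below 0 for 31 of 37 genes, with a median of -0.25 beside 0.00 over all genes. No single difference passed the test, with 0 genes called lower (0.203% of all genes) and 0 called higher (0.319%). At an unadjusted p under 0.05, 15 genes had a lower difference (5.42% of all genes), 6 transporters, 6 synthesis enzymes and 3 ATF4 stress genes, and 1 had a higher one, Sesn2 (5.66%). Cth is among the 15, with both of its Akt group means below background. The experiments also differed in the sex of the mice, in 4OHT and in the length of treatment, and their part in these differences was not tested.

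Other genes of the pathway were examined by lists, 96 measured genes in all, of which 1 (1.04%) was called lower after deletion, beside 0.357% of all genes. With AktI 1 (1.04%) was called lower and 2 (2.08%) higher, close to the 1.03% and 1.51% of all genes. The aminoacyl-tRNA synthetases, charge tRNA and include known ATF4 targets. Of 19 genes, 17 had a log2 fold change below 0 and 13 (68.4%) were lower without overlap, beside 13.7% of all genes, with a median of -0.25. With AktI the median was -0.04 and 3 (15.8%) were lower without overlap, near the 14.8% of all genes. None was called. The largest change was that of Aars, the alanine enzyme, with -0.53 ± 0.0919 after deletion (adjusted p = 0.0314 in limma) and -0.41 ± 0.0708 with AktI (adjusted p = 0.0133), both under 1.5-fold.

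Of 9 ATF4 partners and related leucine zipper genes, Jdp2, a repressor of AP-1 sites, fell in both comparisons, with -1.14 ± 0.163 after deletion (limma adjusted p = 0.0167) and -0.93 ± 0.106 with AktI (adjusted p = 0.00194). The call after deletion was lost without Cre control replicate 1, 2 or 3 (adjusted p = 0.0523, 0.0733 and 0.0780) or Pdpk1-null replicate 3 (0.0602). Cebpb had -0.31 and -0.39 and was not called. Of 8 genes for eIF2 alpha kinases and phosphatases none was called. The largest change was in Eif2ak3, the kinase PERK, with -0.58 with AktI (adjusted p = 0.0237, just under 1.5-fold) and -0.31 after deletion (adjusted p = 0.258), and Eif2ak4, the amino acid sensor GCN2, had 0.02 and -0.01.

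Of 21 other enzymes, Glul, which makes glutamine from glutamate, rose with AktI (0.79, standard error 0.0665, adjusted p = 0.000430 in limma) and had 0.56 after deletion (adjusted p = 0.0561). The list had medians of -0.10 after deletion and 0.02 with AktI. Of 16 genes of amino acid sensing to mTORC1, Sesn1 rose with AktI (0.79, standard error 0.0872, adjusted p = 0.00164) and had 0.31 after deletion (adjusted p = 0.142). Sesn1 and its relative Sesn2 thus had opposite signs with AktI. Of 23 other amino acid transporters none was called, with medians of -0.05 and 0.03, and the largest change was in the neutral amino acid carrier Slc43a2 with AktI (0.48, adjusted p = 0.0116).

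**Figure D5:**
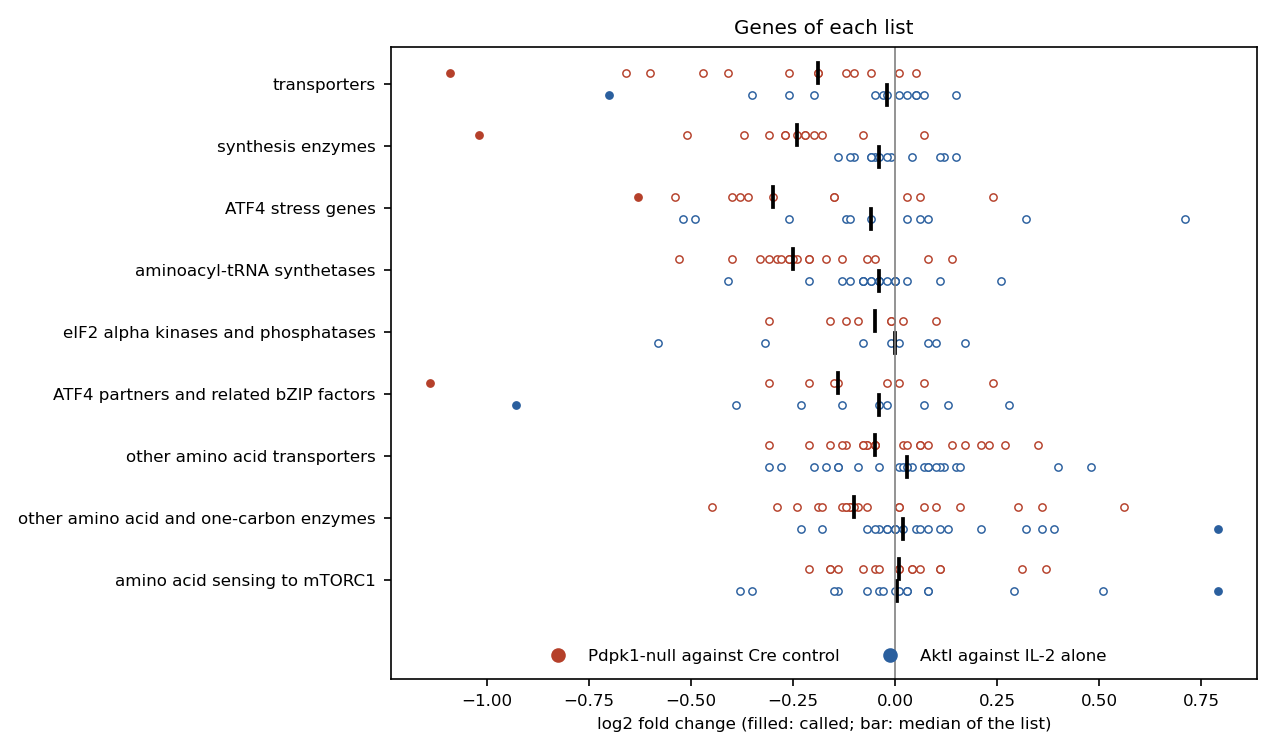
Log2 fold change (horizontal axis) of each gene of the 3 roles and of the 6 pathway lists, in Pdpk1-null against Cre control CTL (red) and AktI against IL-2 alone (blue); filled points were called and bars mark the median. The medians of the 3 roles and of the aminoacyl-tRNA synthetases lie between -0.30 and -0.19 after deletion, and those of amino acid sensing to mTORC1 at 0.01 in both comparisons.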

How the data were processed

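RNA of 12 CTL cultures was hybridized to Affymetrix GeneChip mouse genome arrays. The authors deposited log2 signals made by robust multichip averaging with Affymetrix Expression Console 1.1, per the labels and methods, and these were used as deposited. Of 45101 probe sets, 64 controls were left out. The study called changes with SAM. Here each comparison was fitted with limma 3.58.1 in R 4.3.3 (lmFit, eBayes) on its own 6 arrays, and the difference of the effects on all 12 arrays in a model of 4 group means. The precision is limited by 3 arrays per group. The p-values set each difference against the spread between these samples, which limma estimates with the help of all probe sets. The main fits had no block, so with AktI this spread includes differences between mice. The genes and lists were chosen with earlier results of these data known. Values in every array are given for genes called and for the 3 genes of each role with the smallest p in each comparison; of the pathway lists, called genes or that with the largest change are named, and Cebpb, Eif2ak4 and Eif2s3y were added after their values were seen.

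Same-numbered arrays of the Akt experiment were taken to come from the same mouse. The culture of each mouse was split, and the labels give a replicate number without naming the mouse. Their deviations from the group means correlated with r from 0.0343 to 0.170 (other pairs -0.102 to 0.0383). Arrays of the Pdpk1 experiment have no more than a number in common (r from -0.0110 to 0.0496, other pairs -0.0740 to 0.0410). As alternatives, each array was left out in turn, the replicate number was added as a block, limma was run with a mean-variance trend and robust estimates, the arrays were scaled in other ways, dim probe sets were dropped, no fold minimum was set, other probe sets stood for a gene, and all arrays shared 1 model. Counts without overlap or at an unadjusted p, and the pathway genes, were run under them after the data had been seen.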

Additional observations from a re-analysis of the deposited data

Results flagged for a closer look

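Of all genes in the lists, the CTL marker Prf1, which encodes perforin, was the one whose effects differed between the experiments by the test of the difference (1.53 on the log2 scale, deletion minus AktI, adjusted p = 0.0260 in limma). It had a log2 fold change of -0.67 after deletion (adjusted p = 0.140) and fell with AktI (-2.20, adjusted p = 0.000164). Groups of 3 arrays are too small for a test of single outlying arrays.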

How the results depend on the processing

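Across the alternatives, single log2 fold changes were followed for genes called, for those with the smallest p and for a few pathway genes. None of these turned its sign, and the signs of the other genes were not followed. The median over the 37 genes moved by less than the spread between arrays. When each array was left out, it was -0.29 to -0.20 after deletion, -0.07 to 0.00 with AktI and -0.29 to -0.19 for the difference. The counts of called genes did depend on the settings. After deletion, 3 genes called lower became 6 with no fold minimum, 5 with all 12 arrays in 1 model, 1 with the mean of the probe sets of each gene (Cth), and 1 to 4 when each array was left out (1 without any 1 Cre control array or Pdpk1-null replicate 1). Slc16a10 had -0.58 with that mean, which includes 2 dim probe sets. With AktI, 1 gene called lower became 3 with no fold minimum, 0 with the mean of the probe sets, and 0 to 1 when each array was left out. The count called higher went from 0 to 1 (Trib3) with arrays shifted to one median, dim probe sets left out, the mean of the probe sets, the brightest probe set over the 6 arrays, all 12 arrays in 1 model and the replicate block, and to 0 to 1 when each array was left out. At an unadjusted p under 0.05, 0 genes higher after deletion became 1 with quantile normalization again and with the replicate block and 0 to 1 when each array was left out. With AktI, 2 genes higher became 1 with the mean of the probe sets and with the replicate block and 1 to 3 when each array was left out, and 4 genes lower became 3 to 7 (7 without AktI replicate 3, where 8.72% of all genes were lower). When each array was left out, so that 2 arrays face 3, genes lower without overlap were 5 to 12 with AktI (13.5% to 32.4%, beside 19.2% to 21.4% of all genes) and 23 to 29 after deletion (62.2% to 78.4%, beside 17.9% to 20.0% of all genes). For the difference, 0 genes called lower became 1 with the replicate block (Cth, whose levels in the Akt experiment are below background), and 1 gene higher at an unadjusted p became 2 with the mean of the probe sets and the replicate block and 1 to 2 when each array was left out. The cause of these moves was not tested. The replicate block ended no call named here. Signals near or below background limit what can be said of Cth, Slc7a11, Vldlr and Gpt2.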
